A study of Homo sapiens with 24 samples.

Results

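The EGF receptor family and its ligands were followed in neural progenitor cells (NPCs) and cerebral organoids in which hairpins against KDM2A were set against a scrambled hairpin. The genes were taken from a list of names and not by a threshold on their values: the 4 receptors EGFR, ERBB2, ERBB3 and ERBB4, and 6 ligands, NRG1, TGFA, BTC, HBEGF, EREG and AREG. All 10 were among the 61544 genes of the organoid table, and 9 of them passed the filter on low counts that left 19672 genes. The NPC table lists 10221 genes, 6 of the 10 among them (EGFR, ERBB2, ERBB4, NRG1, TGFA and BTC), and all 6 passed the filter that left 9860 genes. ERBB3, HBEGF, EREG and AREG were not analysed here in the NPCs.

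Poly(A)-selected RNA was sequenced from derivatives of H9, a human embryonic stem cell line in wide use. Per the labels, the stem cells received lentivirus at a multiplicity of infection of 20, were kept in 1 µg/ml puromycin to remove cells without the virus, and only then were turned into NPCs or grown to day 30 as organoids, aggregates of developing neural tissue. The groups were sh1 and sh4, which are 2 hairpins against KDM2A, and NC, a scrambled hairpin in cells labelled as wild type, with 5 libraries each in the NPCs and 3 each in the organoids. KDM2A is a demethylase of histone H3 lysine 36, and the title of the study names the MAPK pathway, one of the pathways downstream of these receptors. All groups share the H9 line, the virus and the puromycin. The stem cells carried the hairpin from before differentiation, so the libraries compare cultures that differentiated with it. Nothing in the labels ties the libraries of a group to separate cultures, and p-values therefore describe the spread between these libraries, which may be technical.

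The receptors are membrane tyrosine kinases that pair with themselves or each other when a ligand binds, and they signal through the RAS-MAPK and PI3K-AKT pathways. Ligands divide by receptor: TGFA and AREG bind EGFR, BTC, HBEGF and EREG bind EGFR and ERBB4, and the neuregulin NRG1 binds ERBB3 and ERBB4. ERBB2 binds none of them and acts as the partner of the others, while the kinase domain of ERBB3 has little activity of its own. In the developing brain, EGFR marks later progenitors that respond to EGF, and neuregulin signalling through ERBB4 acts in the migration of neurons and in contact between neurons and radial glia.

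The deposited counts summed to 15.3 to 20.2 M per NPC library with sh1, 18.9 to 20.1 M with sh4 and 12.7 to 18.2 M with NC, and to 17.3 to 17.7, 18.1 to 18.9 and 15.9 to 17.4 M in the organoid libraries labelled sh1, sh4 and NC. In the NPCs, KDM2A was at 89.1 to 98.1 CPM with sh1, 91.3 to 102 CPM with sh4 and 163 to 202 CPM with NC, where CPM divides a count by the scaled total of its library (TMM scaling). The log2 fold change of KDM2A was -1.02 with sh1 and -0.97 with sh4 (adjusted p = 5.13e-12 and 7.36e-12 by edgeR's quasi-likelihood test, adjusted by Benjamini-Hochberg as for every gene below). In the organoids KDM2A was at 103 to 117 CPM in libraries labelled sh1, 95.6 to 105 CPM in those labelled sh4 and 96.7 to 105 CPM in those labelled NC. The target gene was thus not lower in the organoid libraries of either hairpin (log2 fold change 0.14 and 0.01, adjusted p = 0.126 and 0.922), and every organoid direction below is one between libraries as labelled. The NPC table is a selected one, since 99.3% of its tested genes passed an adjusted p of 0.05 for sh1 over NC and 88% for sh4 over NC. The highest unadjusted p for sh1 over NC was 0.148 in the same test. A listed gene was thus nearly certain to have a low p there, so NPC p-values and shares of genes that passed describe the listed genes only. NPC values in CPM are likewise relative to the listed genes. Markers fitted the 2 labels only in part. In the NPCs 7 of 9 neural progenitor markers were listed and none was at 0 (SOX2 and VIM were not analysed there). All 9 of these and all 8 neuron markers had counts in every organoid group. Counts above 0 do not settle cell identity. With NC in the NPCs, mesenchyme markers summed to 6410 to 7137 CPM and neural progenitor markers to 2171 to 2345. In organoids labelled sh1 and sh4, mesenchyme markers summed to 20630 to 23070 and 39630 to 48660 CPM. Neural progenitor markers there summed to 2738 to 2837 and 1277 to 1708 CPM.

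A gene is said to have risen or fallen where its adjusted p was under 0.05 and its log2 fold change at least 1 in size. In the NPCs, EGFR was 2.23-fold lower with sh1 and 2.24-fold lower with sh4, ERBB4 fell with sh4 and came close to the fold threshold with sh1, and ERBB2 was lower by a small margin. Among the ligands, NRG1 and TGFA rose with both hairpins and BTC fell. With sh1 4 of the 6 genes passed the test, 2 higher and 2 lower, where 18.4% of all 9860 tested genes did (6.31% higher and 12.1% lower). With sh4 5 of the 6 passed, 2 higher and 3 lower, against 18.1% of all genes (6.55% higher and 11.6% lower). The median log2 fold change of the 6 genes was -0.57 with sh1 and -0.63 with sh4, beside 0.11 and 0.03 over all tested genes. The counts and medians include BTC, which had 0 of 5 libraries over the filter's CPM level with sh1, 0 of 5 with sh4 and 5 of 5 with NC, and so could enter the test only by being lower than in NC. With sh4 the count was 4 of 6 in 5 of the 6 other fits tried, all but the one without the filter, because NRG1 lies at the fold threshold. The shares over all genes come from the selected NPC table, so they are no measure of genes at large. The 2 hairpins share their NC libraries, so their results are not independent.

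EGFR, the receptor for EGF and TGFA, was at 122, 110, 122, 106 and 97.5 CPM in the sh1 libraries, 126, 101, 114, 112 and 99.8 CPM in the sh4 libraries, and 256, 245, 256, 252 and 232 CPM in the NC libraries. No knockdown library reached the lowest NC library, while the 2 hairpins overlapped. EGFR thus fell by nearly the same log2 fold change with each hairpin, -1.16 with sh1 (SE 0.067, adjusted p = 1.46e-11) and -1.16 with sh4 (SE 0.067, adjusted p = 1.00e-11). Between the hairpins the log2 difference, sh1 over sh4, was 0.01 with a 95% interval of -0.13 to 0.15. The gene occupies chromosome 7 from 55019021 to 55211628, plus strand (GENCODE annotation, GRCh38), and 1.49% of its exon bases are shared with the antisense gene EGFR-AS1. The sources used here do not give the strand setting of the counting, so reads over those bases cannot be assigned to one of them.

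ERBB4, the receptor for neuregulins that also has an active kinase, was at 164, 165, 167, 146 and 133 CPM with sh1, 158, 124, 112, 144 and 132 CPM with sh4, and 296, 279, 290, 271 and 267 CPM with NC. All 10 knockdown libraries were below the lowest NC library. It fell with sh4 (log2 fold change -1.07, SE 0.078, adjusted p = 2.85e-10), and with sh1 the change of -0.86 (SE 0.077, adjusted p = 6.40e-09) stayed under the fold threshold. The difference between the hairpins was 0.21 (95% interval 0.05 to 0.37, adjusted p = 0.0515). One being past the fold threshold and the other not is therefore no difference between them that passed the test.

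ERBB2, the partner without a ligand, was at 86.0, 71.4, 93.2, 91.2 and 83.6 CPM with sh1, 84.0, 92.6, 96.5, 89.9 and 85.7 CPM with sh4, and 112, 104, 108, 101 and 91.5 CPM with NC. The lowest NC library lay inside the range of both hairpins. Log2 fold changes were -0.28 with sh1 (adjusted p = 0.000805) and -0.20 with sh4 (adjusted p = 0.00943), both under the fold threshold. Exons of ERBB2 share 5.53% of their bases with MIEN1 and 1.88% with PGAP3, both on the opposite strand.

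**Figure D1:**
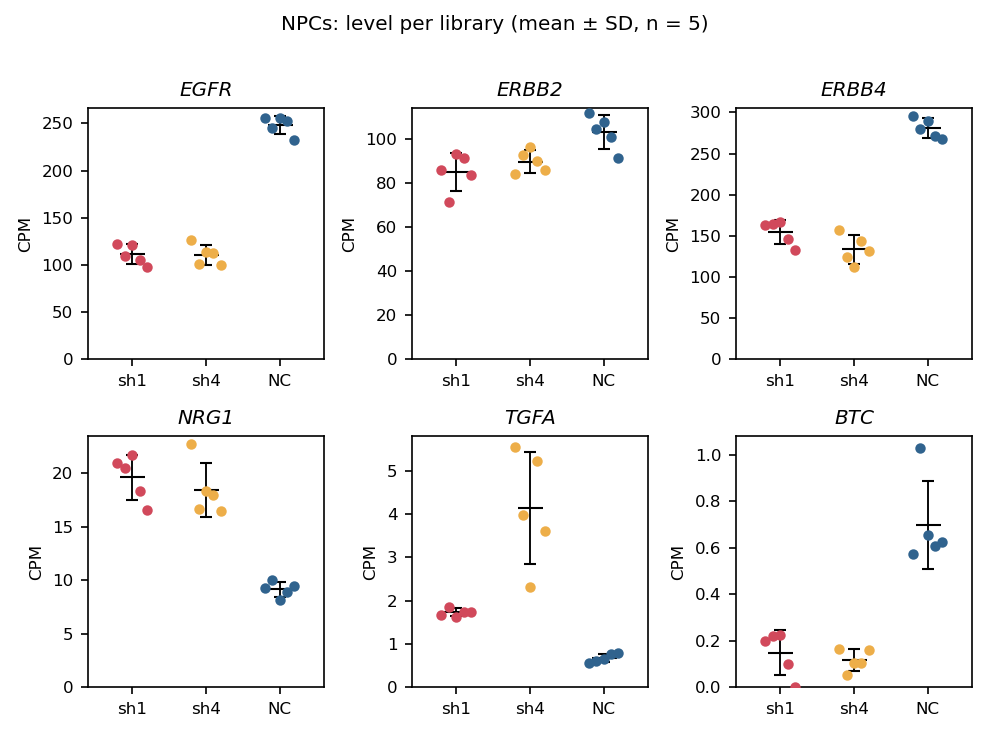
CPM of the 6 listed genes in each NPC library (points) with the group mean and SD (bars, n = 5), for sh1, sh4 and NC on a linear axis from 0. EGFR and ERBB4 are lower in all knockdown libraries, NRG1 and TGFA are higher in all of them, and BTC is at or under 0.224 CPM with either hairpin and at 0.574 CPM or more with NC.

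Divided by exon length, which allows genes to be set side by side, the order with NC was ERBB4 (21.6 ± 0.94 CPM per kb, SD, n = 5), EGFR (19.8 ± 0.79), ERBB2 (10.01 ± 0.75), NRG1 (0.809 ± 0.060), BTC (0.248 ± 0.067) and TGFA (0.137 ± 0.019), and no neighbours in it overlapped. With sh1, EGFR (8.89 ± 0.85 CPM per kb) and ERBB2 (8.24 ± 0.83) overlapped, and with sh4 the ranges of ERBB4 (10.3 ± 1.35), EGFR (8.84 ± 0.85) and ERBB2 (8.70 ± 0.49) formed an overlapping series. TGFA stood above BTC with both hairpins (0.349 and 0.834 against 0.0531 and 0.0417 CPM per kb), the reverse of their order with NC. Summed over the 3 listed receptors, the level was 26.1 to 31.6 CPM per kb with sh1 and 26.4 to 30.3 with sh4, against 48.0 to 54.1 with NC. EGFR made up 29.6 to 31.8% of that sum with sh1 and 30.2 to 33.7% with sh4, against 37.8 to 39.7% with NC, and ERBB2 made up 24.4 to 31.1% and 26.9 to 34.5%, against 18.5 to 20.1%. ERBB3 is not in these sums.

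NRG1, the neuregulin, was at 20.9, 20.5, 21.8, 18.4 and 16.5 CPM in the NPC libraries with sh1, 22.8, 16.7, 18.4, 18.0 and 16.5 CPM with sh4, and 9.29, 9.99, 8.15, 8.95 and 9.44 CPM with NC. All knockdown libraries were above all NC libraries. It rose with sh1 (log2 fold change 1.09, SE 0.10, adjusted p = 8.26e-09) and with sh4 (1.00, SE 0.10, adjusted p = 2.41e-08), both changes at the fold threshold. Without NC replicate 3 the sh4 value was 0.97, without NC replicate 4 it was 0.99 and without sh4 replicate 1 it was 0.92, and the call was then lost on fold size alone. It was lost in the same way with the replicate number as a block (0.9974), with DESeq2 (0.9915), with RLE scaling (0.991), with the 2 groups fitted alone (0.9934) and with library totals as the only scaling (0.86). Between the hairpins the log2 difference was 0.09 (95% interval -0.11 to 0.28).

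TGFA, a ligand of EGFR alone, was at 1.68, 1.87, 1.62, 1.74 and 1.75 CPM with sh1, 5.55, 3.98, 2.33, 5.23 and 3.62 CPM with sh4, and 0.574, 0.618, 0.655, 0.773 and 0.783 CPM with NC. The 3 groups did not overlap, sh4 being highest and NC lowest. It rose with sh1 (log2 fold change 1.34, SE 0.26, adjusted p = 8.03e-05) and with sh4 (2.59, SE 0.23, adjusted p = 3.51e-09). It was also the one gene of the 6 that passed the test between the hairpins, lower with sh1 than with sh4 (log2 difference -1.25, SE 0.19, adjusted p = 4.06e-05), where 4.6% of all genes passed (2.18% higher and 2.42% lower). The NC libraries held 9 to 15 reads each of this gene.

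BTC, betacellulin, had few reads in the NPCs: 13 in all with sh1, 11 with sh4 and 63 with NC. Its level was 0.201, 0.220, 0.224, 0.102 and 0 CPM with sh1, 0.165, 0.0518, 0.103, 0.106 and 0.162 CPM with sh4, and 0.574, 1.03, 0.655, 0.608 and 0.626 CPM with NC. It fell with sh1 (log2 fold change -2.23, SE 0.39, adjusted p = 3.34e-05) and with sh4 (-2.52, SE 0.40, adjusted p = 1.16e-05). BTC passed the filter on low counts only through its NC libraries, so a gene at this depth could enter the NPC test only by being higher there. The 95% interval of the difference between the hairpins was wide, -0.89 to 1.48 on the log2 scale.

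Summed CPM of marker lists in the NPCs were set beside these changes. The 7 pluripotency markers summed to 1651 to 1761 CPM with sh1 and 1503 to 1599 with sh4, against 997.7 to 1080 with NC. The 7 listed neural progenitor markers summed to 1958 to 2215 CPM with sh1 and 2845 to 3337 with sh4, against 2171 to 2345 with NC. Mesenchyme markers (8 of 9 listed) summed to 4865 to 5921 CPM with sh1 and 5774 to 6616 with sh4, against 6410 to 7137 with NC, and epithelium markers (9 of 11 listed) to 290 to 332 and 270.5 to 331, against 257 to 281. Astroglia and oligodendrocyte markers (5 of 8 listed) summed to 16.2 to 19.3 CPM with sh1 and 33.7 to 45.7 with sh4, against 53.3 to 67.8 with NC. Endothelium markers (4 of 4 listed) summed to 130 to 151 CPM with sh1 and 98.9 to 154 with sh4, against 49.9 to 59.2 with NC, and choroid plexus markers (6 of 6 listed) to 112 to 117 and 81.7 to 89.6, against 125 to 138. Neuron markers (5 of 8 listed) summed to 2142 to 2443 CPM with sh1 and 2510 to 2642 with sh4, against 2054 to 2623 with NC. The neural crest list had 1 of 6 genes listed (72.8 to 84.2 and 115 to 126 CPM, against 29.7 to 37.3), and the microglia and blood list had none. No listed marker of these lists was at 0. In bulk samples, fewer cells of a type and less RNA per cell cannot be told apart, and the part of these markers in the changes of the receptors and ligands was not tested.

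In the organoids the genes that passed the test were mostly higher. EGFR, BTC and AREG rose in the libraries of both hairpins and were the genes with the largest fold changes, ERBB3 and TGFA rose in those labelled sh1, and NRG1 fell in those labelled sh4. With the sh1 label 5 of the 9 tested genes passed, all higher, where 20.0% of all 19672 tested genes passed (12.1% higher and 7.95% lower). With the sh4 label 4 of the 9 passed, 3 higher and 1 lower, against 35.5% of all genes (20.0% higher and 15.5% lower). The median log2 fold change of the 9 genes was 1.11 for the sh1 label and 0.73 for the sh4 label, beside 0.02 and -0.01 over all tested genes. These counts and medians include BTC, which had 3 of 3 libraries over the filter's CPM level with the sh4 label, 1 of 3 with the sh1 label and 0 of 3 with the NC label, and so a gene at this depth could enter only by being higher than in NC. They also include AREG, with 3 of 3 libraries over that level for each hairpin label and 2 of 3 for NC. Its NC libraries alone would not have passed it.

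EGFR was at 42.2, 28.1 and 41.7 CPM in the organoid libraries labelled sh1, 127, 81.7 and 80.5 CPM in those labelled sh4, and 9.99, 10.7 and 6.04 CPM in those labelled NC. The 3 groups did not overlap. EGFR rose by a log2 fold change of 2.06 with the sh1 label (SE 0.26, adjusted p = 0.000226) and 3.43 with the sh4 label (SE 0.27, adjusted p = 4.01e-06). It was lower with the sh1 label than with the sh4 label (log2 difference -1.37, SE 0.24, adjusted p = 0.0015), a comparison in which 19.0% of all tested genes passed (7.82% higher and 11.2% lower). Leaving out 1 library or changing the scaling or tool kept the change between 1.85 and 2.24 for the sh1 label and between 3.14 and 3.58 for the sh4 label.

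The main EGFR promoter is printed because EGFR moved in opposite directions in the NPCs and the organoids. The stretch runs from 250 bases before to 50 bases after the annotated start, 5′ to 3′ on the gene's strand, at chr7:55018767-55019066 on the plus strand (RefSeq, GRCh38.p14), and capitals mark CG dinucleotides.
EGFR: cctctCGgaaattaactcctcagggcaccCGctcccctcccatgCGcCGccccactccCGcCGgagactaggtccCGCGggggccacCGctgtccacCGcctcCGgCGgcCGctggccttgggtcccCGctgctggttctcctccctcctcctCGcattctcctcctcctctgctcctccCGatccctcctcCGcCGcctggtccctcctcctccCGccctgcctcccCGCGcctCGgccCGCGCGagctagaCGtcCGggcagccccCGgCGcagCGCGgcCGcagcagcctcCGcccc
It holds 33 CG dinucleotides, and 82.8% of the 35116 promoters in the same table hold fewer (median 14). Searched on both strands, it holds 3 copies of GGGCGG, a sequence found in 45% of the promoters of the table. A match in letters is a description of the window and not a bound site.

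ERBB3, the receptor that binds neuregulin but has little kinase activity, was at 133, 91.0 and 116 CPM in the organoid libraries labelled sh1, 73.4, 83.4 and 41.5 CPM in those labelled sh4, and 37.1, 45.0 and 37.4 CPM in those labelled NC. The sh1-labelled libraries lay above the rest, while sh4 replicate 3 fell among the NC libraries. ERBB3 rose with the sh1 label (log2 fold change 1.51, SE 0.24, adjusted p = 0.000687), and with the sh4 label the change of 0.73 (SE 0.23, adjusted p = 0.0187) was under the fold threshold. The difference between sh1 and sh4 was 0.78 (95% interval 0.26 to 1.29, adjusted p = 0.0187), also under it. With library totals as the only scaling that difference was 1.01 (adjusted p = 0.00453) and passed.

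ERBB4 was at 39.7, 36.3 and 43.9 CPM with the sh1 label, 38.9, 31.1 and 43.1 CPM with the sh4 label, and 19.2, 21.3 and 26.3 CPM with the NC label in the organoids. The libraries of both hairpins lay above those of NC. Log2 fold changes were 0.84 (SE 0.15, adjusted p = 0.00134) and 0.76 (SE 0.15, adjusted p = 0.00122), under the fold threshold in both. Between the hairpins the difference was 0.08 (95% interval -0.24 to 0.41).

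ERBB2 was at 102, 104 and 96.7 CPM with the sh1 label, 97.7, 97.6 and 101 CPM with the sh4 label, and 79.1, 79.0 and 84.5 CPM with the NC label in the organoids. The libraries of both hairpins lay above those of NC here too, and the log2 fold changes of 0.32 (SE 0.057, adjusted p = 0.00159) and 0.29 (SE 0.058, adjusted p = 0.00139) were the smallest of the receptors. With the sh4 label the value was 0.01 when library totals were the only scaling. The hairpins differed by 0.03 (95% interval -0.10 to 0.16).

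**Figure D2:**
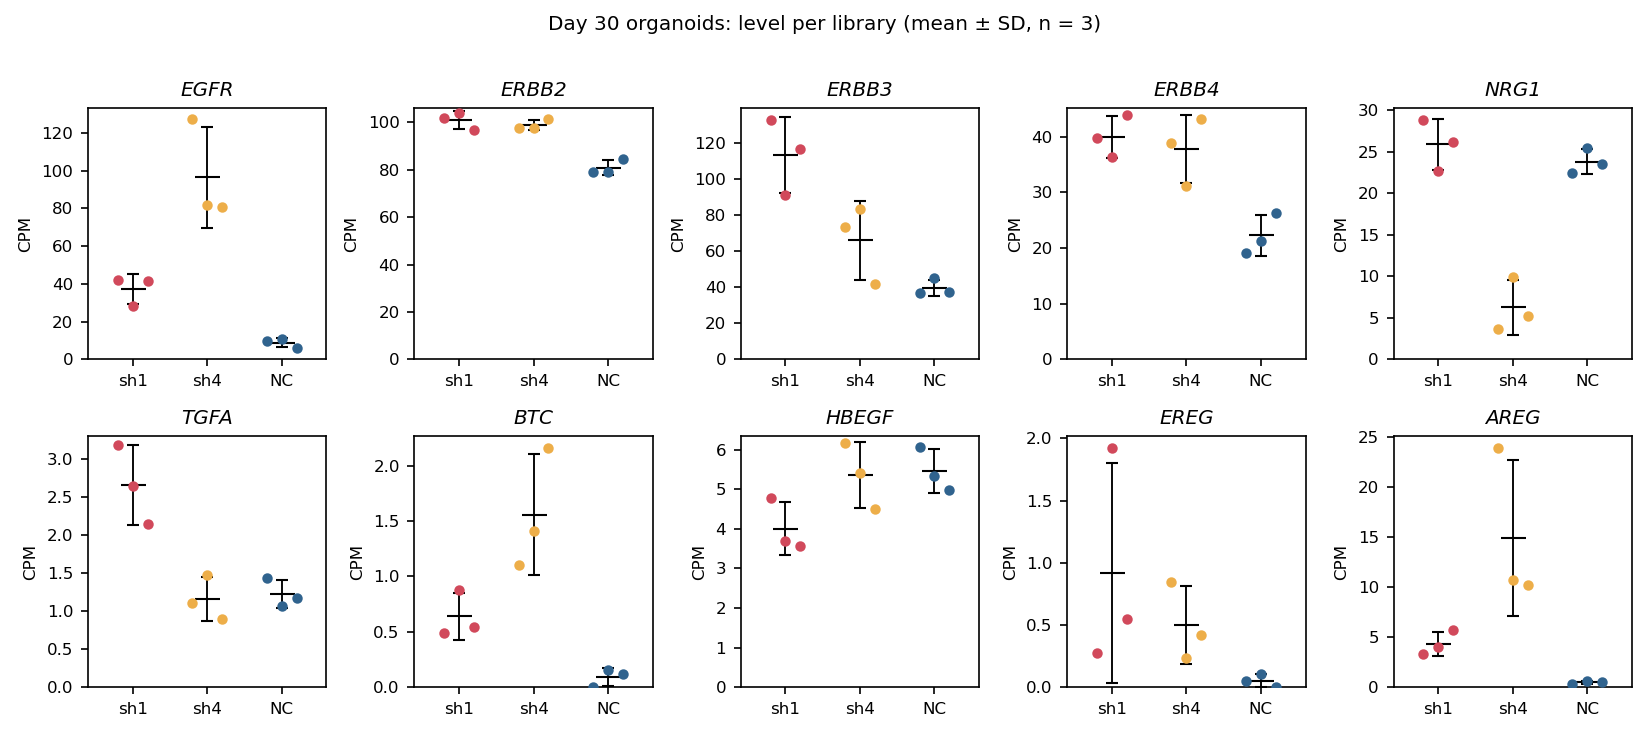
CPM of the 10 genes in each organoid library (points) with the group mean and SD (bars, n = 3), for libraries labelled sh1, sh4 and NC on linear axes from 0. EGFR and AREG separate all 3 groups with the sh4 label highest, NRG1 is low in the sh4-labelled libraries alone, and HBEGF overlaps between sh4 and NC.

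Per exon length, the receptors in libraries labelled NC stood in the order ERBB2 (7.84 ± 0.30 CPM per kb, SD, n = 3), ERBB3 (4.40 ± 0.49), ERBB4 (1.71 ± 0.28) and EGFR (0.711 ± 0.20), without overlap. In the sh1-labelled libraries ERBB3 (12.5 ± 2.32) and ERBB2 (9.77 ± 0.36) led and overlapped by their ranges, as did ERBB4 (3.07 ± 0.29) and EGFR (2.98 ± 0.64). In the sh4-labelled libraries ERBB2 (9.575 ± 0.20) had the highest mean and overlapped with EGFR (7.70 ± 2.12). EGFR also overlapped with ERBB3 (7.32 ± 2.42) and stood above ERBB4 (2.90 ± 0.47). Their summed level was 25.2 to 31.0 CPM per kb with the sh1 label and 24.2 to 30.7 with the sh4 label, against 14.0 to 15.1 with the NC label. EGFR made up 8.91 to 11.5% of the sum with the sh1 label and 23.6 to 33.0% with the sh4 label, against 3.25 to 5.69% with the NC label. ERBB3 made up 40.0 to 47.4% with the sh1 label and 19.0 to 33.5% with the sh4 label, against 27.9 to 32.9% with the NC label, and ERBB2 31.9 to 40.0% and 30.8 to 40.6%, against 50.6 to 55.2%. The summed receptor levels of the 2 hairpins overlapped, while every library labelled sh4 had a larger EGFR share and a smaller ERBB3 share than any labelled sh1.

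**Figure D3:**
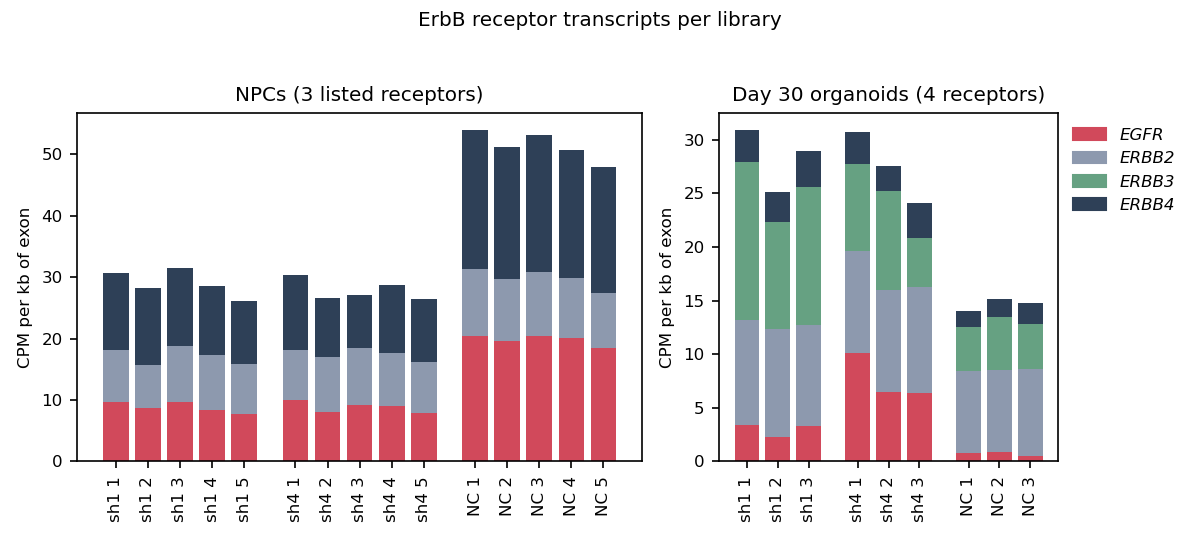
Stacked bars of receptor level in CPM per kb of exon for each library, NPCs on the left (3 listed receptors) and organoids on the right (4 receptors). The NPC sums are lower in all knockdown libraries than with NC (26.1 to 31.6 against 48.0 to 54.1), and the organoid sums are higher in libraries labelled sh1 and sh4 (24.2 to 31.0 against 14.0 to 15.1).

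Among the tested organoid ligands, AREG, amphiregulin, had the largest change. It was at 3.35, 4.01 and 5.70 CPM in libraries labelled sh1, 23.9, 10.7 and 10.2 CPM in those labelled sh4, and 0.331, 0.640 and 0.586 CPM in those labelled NC, from 238, 720 and 28 reads in all. No group overlapped another. Only 2 of 3 NC libraries were over the filter's CPM level, so AREG passed the filter with the help of the hairpin libraries where it was higher. AREG rose by a log2 fold change of 3.05 with the sh1 label (SE 0.46, adjusted p = 0.000568) and 4.83 with the sh4 label (SE 0.45, adjusted p = 1.14e-05), and it was lower with the sh1 label than with the sh4 label (log2 difference -1.78, SE 0.36, adjusted p = 0.003). Per exon length AREG was at 9.06 ± 4.72 CPM per kb with the sh4 label, overlapping with ERBB2, against 0.315 ± 0.10 with the NC label.

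BTC was at 0.494, 0.879 and 0.548 CPM with the sh1 label, 1.10, 1.41 and 2.16 CPM with the sh4 label, and 0, 0.160 and 0.117 CPM with the NC label in the organoids, from 35, 77 and 5 reads. The 3 groups did not overlap. BTC rose with the sh1 label (log2 fold change 2.70, SE 0.68, adjusted p = 0.00914) and with the sh4 label (3.97, SE 0.63, adjusted p = 0.000334). Without NC replicate 2, which held 3 of the 5 NC reads, these values were 3.33 and 4.60. BTC passed the filter through the libraries where it was higher, so its directions are a description only. Summed counts per scaled total gave ratios to NC of 6.90 (95% counting interval 2.69 to 22.6) and 16.9 (6.95 to 53.6). The difference of -1.28 between sh1 and sh4 (adjusted p = 0.0499) passed the test by a narrow margin: the adjusted p was 0.0607 to 0.174 without any one of sh1 replicate 1, 2 or 3, sh4 replicate 2 or 3, or NC replicate 2 or 3, with differences of -1.56 to -0.97.

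EREG, epiregulin, did not pass the filter on low counts. It had 5, 35 and 10 reads in libraries labelled sh1, 13, 4 and 7 in those labelled sh4, and 1, 2 and 0 in those labelled NC. Every hairpin library held more reads than any NC library, and 35 of the 50 sh1 reads came from replicate 2. The ratio of summed counts to NC was 16.4 for the sh1 label (95% counting interval 5.31 to 82.4) and 8.79 for the sh4 label (2.67 to 45.6), with 3 NC reads behind both. These intervals cover counting error only. In a fit without the filter EREG had an adjusted p of 0.00597 for the sh1 label and 0.0251 for the sh4 label.

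EREG, AREG and BTC lie close together on chromosome 4, along with EPGN, epigen, another ligand of EGFR. EPGN lies at 74308473 to 74315307, EREG at 74365143 to 74388751 and AREG at 74445134 to 74455009, all on the plus strand, and BTC at 74744759 to 74794686 on the minus strand (GENCODE, GRCh38), a span of 486 kb. EPGN had 0, 3 and 0 reads in all in the organoid libraries labelled sh1, sh4 and NC. The promoters of the 3 genes with higher counts in the hairpin libraries are printed for comparison, in the same window and notation as for EGFR: AREG at chr4:74444886-74445185 on the plus strand, EREG at chr4:74364895-74365194 on the plus strand and BTC at chr4:74794474-74794773 on the minus strand (RefSeq, GRCh38.p14).
AREG: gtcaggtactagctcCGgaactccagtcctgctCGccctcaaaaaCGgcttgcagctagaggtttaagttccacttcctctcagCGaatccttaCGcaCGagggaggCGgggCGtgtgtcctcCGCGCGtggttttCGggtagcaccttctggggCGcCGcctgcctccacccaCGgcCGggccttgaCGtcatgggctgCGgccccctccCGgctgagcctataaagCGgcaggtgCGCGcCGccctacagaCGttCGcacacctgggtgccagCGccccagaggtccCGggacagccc
EREG: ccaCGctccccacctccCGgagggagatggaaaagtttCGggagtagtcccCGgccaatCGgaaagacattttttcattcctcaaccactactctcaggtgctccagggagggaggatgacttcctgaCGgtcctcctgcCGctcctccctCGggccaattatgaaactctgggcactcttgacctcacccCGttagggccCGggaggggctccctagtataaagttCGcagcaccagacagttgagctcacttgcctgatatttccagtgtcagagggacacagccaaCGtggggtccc
BTC: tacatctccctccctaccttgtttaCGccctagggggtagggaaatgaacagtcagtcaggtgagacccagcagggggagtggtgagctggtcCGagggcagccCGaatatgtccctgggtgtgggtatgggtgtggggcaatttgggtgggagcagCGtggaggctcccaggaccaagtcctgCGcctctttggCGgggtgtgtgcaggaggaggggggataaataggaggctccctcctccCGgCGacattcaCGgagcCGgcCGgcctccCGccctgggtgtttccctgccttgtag
AREG holds 27 CG dinucleotides in this window, more than 71.8% of the promoters of the table, and EREG and BTC hold 12 each, more than 46.9% of them. On either strand, AREG and EREG each hold 1 copy of TATAAA, which 11.5% of all promoters hold, and AREG and BTC each hold 1 copy of GGGCGG. ERBB2 holds 24 CG dinucleotides, ERBB4 19 and HBEGF 38, and 8 of the 10 genes had an entry in the table.

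NRG1 was at 28.9, 22.8 and 26.2 CPM in organoid libraries labelled sh1, 3.64, 9.94 and 5.22 CPM in those labelled sh4, and 22.5, 25.5 and 23.5 CPM in those labelled NC. The sh4-labelled libraries lay below both other groups, which overlapped. NRG1 fell with the sh4 label (log2 fold change -1.92, SE 0.29, adjusted p = 0.000217) and was at 0.12 with the sh1 label (95% interval -0.47 to 0.71, adjusted p = 0.727). It was higher with the sh1 label than with the sh4 label (log2 difference 2.04, SE 0.29, adjusted p = 0.000467). NRG1 occupies chromosome 8 from 31639386 to 32767959, plus strand (GENCODE, GRCh38), and has many annotated isoforms, whose reads the gene count pools.

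TGFA was at 3.18, 2.64 and 2.14 CPM with the sh1 label, 1.10, 1.47 and 0.899 CPM with the sh4 label, and 1.44, 1.07 and 1.17 CPM with the NC label in the organoids. The sh1-labelled libraries lay above the rest, and sh4 and NC overlapped. TGFA rose with the sh1 label (log2 fold change 1.11, SE 0.28, adjusted p = 0.00985), a call that was lost without sh1 replicate 1 (0.96, adjusted p = 0.0449). With the sh4 label it was at -0.08 (95% interval -0.75 to 0.59). It was higher with the sh1 label than with the sh4 label (log2 difference 1.19, SE 0.29, adjusted p = 0.00723).

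HBEGF, heparin-binding EGF, was at 4.77, 3.68 and 3.56 CPM with the sh1 label, 6.17, 5.41 and 4.50 CPM with the sh4 label, and 6.07, 5.33 and 4.98 CPM with the NC label in the organoids. The sh1-labelled libraries were below NC and the sh4-labelled libraries overlapped with it. Neither log2 fold change passed the test, at -0.45 with the sh1 label (95% interval -0.89 to -0.005, adjusted p = 0.0896) and -0.03 with the sh4 label (-0.47 to 0.41, adjusted p = 0.906). The organoid libraries labelled sh1 and sh4 thus differed from each other in 5 of the 9 tested genes, where 19.0% of all genes passed: NRG1 and TGFA were higher and EGFR, AREG and BTC lower with the sh1 label. The count was 4 of 9 with DESeq2, without the filter and with the replicate number as a block, and in 7 of the 9 fits that left out a library, since BTC then lost its call. BTC also entered the test mainly through the sh4-labelled libraries where it was higher (3 of 3 over the filter's CPM level, 1 of 3 with the sh1 label). Its place in this count is a description only.

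Per exon length, NC organoids had NRG1 (2.10 ± 0.14 CPM per kb, SD, n = 3) and HBEGF (1.81 ± 0.18) as the leading ligands, overlapping in range, followed by AREG (0.315 ± 0.10) and TGFA (0.247 ± 0.038), which overlapped, and by BTC (0.0328 ± 0.029) and EREG (0.00944 ± 0.0093), which overlapped. In the sh1-labelled libraries AREG (2.64 ± 0.74) and NRG1 (2.29 ± 0.27) led with overlapping ranges. In the sh4-labelled libraries AREG led, HBEGF (1.78 ± 0.28) came next, and BTC (0.553 ± 0.19) and NRG1 (0.553 ± 0.29) overlapped.

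**Figure D4:**
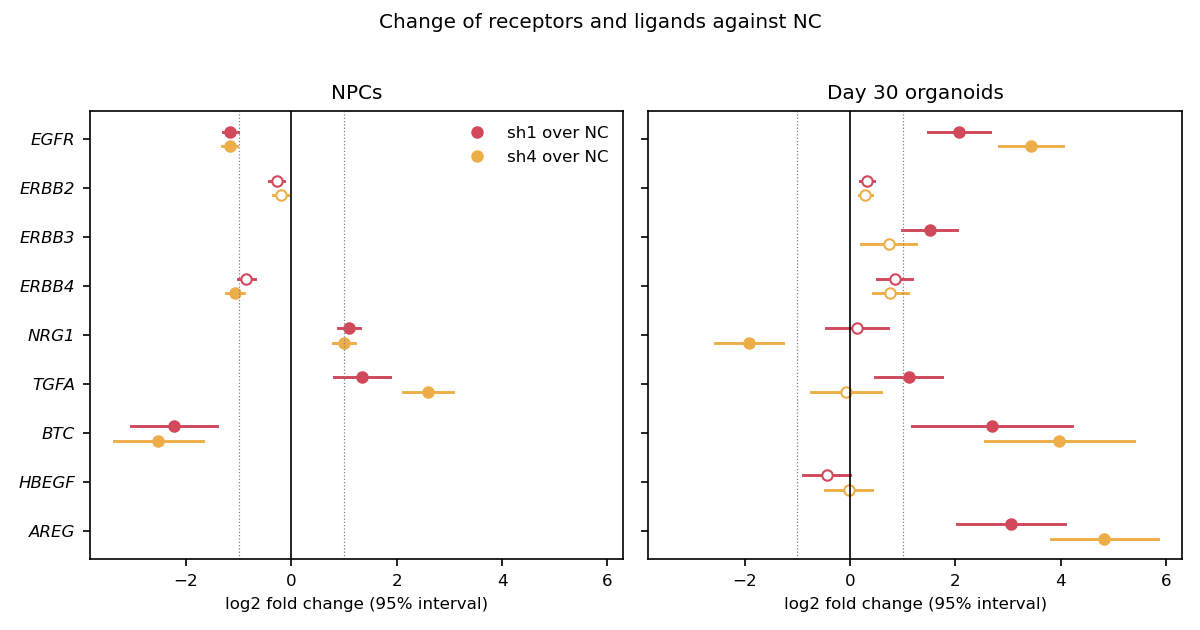
Log2 fold change over NC with its 95% interval for each tested gene, sh1 above sh4, in the NPCs (left) and organoids (right). Filled points passed the test and dotted lines mark a log2 fold change of 1 in size. EGFR, ERBB2, ERBB4 and BTC lie left of 0 in the NPCs and right of 0 in the organoids for both hairpins. The BTC directions are those through which it passed the filter on low counts in each system.

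For the 6 genes listed in both tables, the changes over NC in the 2 systems were compared in 1 fit over 10028 shared genes. The shared genes are limited to those of the selected NPC table, and the shares below describe them only. The difference is the log2 fold change over NC in the NPCs minus that in the organoids. For sh1 4 of the 6 genes passed (30.5% of all genes did, 11.8% higher and 18.7% lower) and for sh4 5 of the 6 (39.7% of all genes did, 16.6% higher and 23.0% lower). EGFR differed by -3.19 for sh1 (SE 0.23, adjusted p = 1.46e-11) and by -4.60 for sh4 (adjusted p = 9.40e-15), and BTC by -4.90 (adjusted p = 3.96e-06) and -6.52 (adjusted p = 1.18e-08). EGFR fell with both hairpins in the NPCs and rose with both in the organoids, as 1.93% of the 9580 genes tested in both tables did. BTC did so too, but those are the directions through which it passed the filter in each system, so its counts and directions are a description only. The BTC differences were -5.55 for sh1 and -7.13 for sh4 without organoid NC replicate 2, and -5.92 for sh4 without organoid NC replicate 1.

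ERBB4 differed by -1.67 for sh1 (adjusted p = 2.21e-09) and -1.84 for sh4 (adjusted p = 2.50e-10), its values being negative in the NPCs and positive in the organoids. NRG1 differed by 1.00 for sh1 (adjusted p = 0.000711) and 2.92 for sh4 (adjusted p = 3.04e-10). The sh1 value sits at the fold threshold: it was 0.91 to 1.00 without any one of NPC NC replicate 3 or 4, NPC sh1 replicate 1, 2 or 3, organoid sh1 replicate 2 or organoid NC replicate 2, and the call was then lost on fold size. TGFA differed by 2.66 for sh4 (adjusted p = 7.44e-07) and by 0.26 for sh1 (95% interval -0.48 to 0.99). ERBB2 differed by -0.57 and -0.50 (adjusted p = 3.07e-05 and 0.000117), under the fold threshold. The organoid side of each difference rests on libraries in which KDM2A was not lower.

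On the scale of the shared genes, the starting levels with NC were unlike in the 2 systems. EGFR was at 253 ± 11.0 CPM in the NPCs and 13.7 ± 3.91 CPM in the organoids, and ERBB4 at 286 ± 13.5 and 34.2 ± 5.37 CPM (SD, n = 5 and 3). NRG1 was at 9.33 ± 0.67 CPM in the NPCs and 36.6 ± 2.42 CPM in the organoids, and ERBB2 at 105 ± 8.27 and 124 ± 4.00 CPM. System and table cannot be told apart here, so these levels were not tested.

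Marker sums were also set beside the organoid changes. Mesenchyme markers (9 genes) summed to 20630 to 23070 CPM in libraries labelled sh1 and 39630 to 48660 in those labelled sh4, against 2981 to 4397 in those labelled NC, and choroid plexus markers (6 genes) to 951.5 to 2077 and 4228 to 9044, against 126.8 to 259.3. Epithelium markers (11 genes) summed to 571 to 783 CPM with the sh1 label and 2235 to 2985 with the sh4 label, against 955 to 1091 with the NC label. Microglia and blood markers (4 genes) summed to 9.07 to 22.8 CPM with the sh1 label and 77.4 to 130 with the sh4 label, against 1.52 to 3.98 with the NC label. Astroglia and oligodendrocyte markers (8 genes) summed to 284.5 to 457 and 197 to 277, against 62.8 to 83.8, and neural crest and Schwann markers (6 genes) to 404 to 583 and 49.4 to 327, against 233 to 354. Neural progenitor markers (9 genes) summed to 2738 to 2837 and 1277 to 1708, against 3416 to 3952, and neuron markers (8 genes) to 1099 to 1518 and 203.5 to 834.5, against 2832 to 3083. The 10 most abundant genes took 6.73 to 7.41% of counts with the sh1 label and 11.8 to 14.4% with the sh4 label, against 5.38 to 5.81% with the NC label, and mitochondrial genes took 3.14 to 3.29% and 5.05 to 6.02%, against 3.07 to 3.5%. Endothelium markers (4 genes) summed to 119.5 to 202 CPM and 429 to 621, against 128 to 170, and pluripotency markers (7 genes) to 71.5 to 77.8 and 71.5 to 97.6, against 674 to 965. No marker of these lists was at 0 over a whole group but PRDM14, a pluripotency marker, in the sh4-labelled libraries. EGFR, AREG and BTC stood in the order of the mesenchyme, choroid plexus, and microglia and blood sums (sh4, sh1, NC). The endothelium sum ran the same way by medians, with sh1 and NC overlapping. The neural progenitor and neuron sums ran in the reverse order. The means of ERBB3, ERBB4 and ERBB2 stood in the order of the astroglia and oligodendrocyte sum (sh1, sh4, NC). By medians the epithelium sum ran sh4, NC, sh1, as did HBEGF, whose sh4 and NC libraries overlapped. The neural crest and Schwann sum ran sh1, NC, sh4, as did NRG1 and TGFA. NRG1 overlapped between sh1 and NC, and TGFA between sh4 and NC. Few orders are possible with 3 groups, so a shared order is a description and points to no cell type. The neuron sum was below NC with both labels, while NRG1 passed as lower with the sh4 label and was at 0.12 on the log2 scale with the sh1 label. The part of these markers in the changes was not tested.

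The other genes of the pathway were counted from lists by role. Of the other ligands of the family (EGF, EPGN, NRG2, NRG3 and NRG4), 0 of 2 tested passed with both hairpins in the NPCs. In the organoids 1 of 4 did: NRG4, a ligand of ERBB4, rose to 1.92 ± 0.69 CPM with the sh1 label and 2.48 ± 0.20 CPM with the sh4 label, against 0.687 ± 0.13 CPM with the NC label (log2 fold change 1.48 and 1.84, adjusted p = 0.00537 and 0.00074). Of all organoid genes 16.3% passed the same way with both hairpins (10.2% higher and 6.19% lower), and of all NPC genes 13.1% did (4.62% higher and 8.48% lower).

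Of the genes that shed or traffic ligands, 0 of 6 tested in the NPCs passed both thresholds with both hairpins. In the organoids 2 of 11 did, both higher, where 16.3% of all genes passed the same way with both. BACE2, a membrane protease related to BACE1, which cuts NRG1, rose to 30.7 ± 2.02 CPM with the sh1 label and 35.9 ± 3.25 CPM with the sh4 label, against 7.92 ± 0.26 CPM with the NC label (log2 fold change 1.95 and 2.18). ADAM12, a metalloprotease that can release HBEGF, rose to 54.9 ± 8.70 and 81.5 ± 7.85 CPM, against 26.8 ± 2.41 CPM (log2 fold change 1.03 and 1.60). In the NPCs, BACE2 was at 24.7 ± 2.10 CPM with sh1 and 36.2 ± 3.74 CPM with sh4, against 12.5 ± 0.67 CPM with NC (log2 fold change 0.99 and 1.54, adjusted p = 1.93e-09 and 2.38e-12), just under the fold threshold with sh1. ADAM12 in the NPCs was at 23.7 ± 1.33 CPM with sh1 and 55.5 ± 4.33 CPM with sh4, against 56.4 ± 3.34 CPM with NC.

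Of the genes that restrain or degrade the receptors, 0 of 8 tested in the NPCs passed both thresholds the same way with both hairpins. In the organoids 1 of 13 did. Over all tested genes the shares were 13.1% in the NPCs and 16.3% in the organoids. Under the fold threshold, ERRFI1, an inhibitor of the EGFR kinase, had NPC log2 fold changes of -0.68 (sh1) and -0.69 (sh4), with adjusted p = 2.68e-06 and 1.91e-06, and LRIG1, which lowers receptor levels, of 0.26 and 0.76 (adjusted p = 1.06e-05 and 3.00e-12). In the organoids ERRFI1 was at -0.49 with the sh1 label and 0.51 with the sh4 label. LRIG1 was at -0.93 and -1.06 there, and passed as lower with the sh4 label. ERRFI1 and LRIG1 were chosen after their NPC values were seen. The organoid gene that passed with both labels was SOCS4, a SOCS-box protein that binds EGFR. It fell to 37.2 ± 3.63 CPM with the sh1 label and 24.4 ± 4.32 CPM with the sh4 label, against 78.1 ± 4.85 CPM with the NC label (log2 fold change -1.07 and -1.68). In the NPCs SOCS4 was higher, under the fold threshold (0.385 with sh1 and 0.433 with sh4, adjusted p = 2.46e-05 and 6.22e-06). Over the whole list the median log2 fold change in the organoids was -0.35 with the sh1 label and -0.07 with the sh4 label, and in the NPCs 0.28 and 0.34.

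Among the adaptors and effectors, 2 of 18 tested in the NPCs and 2 of 26 in the organoids passed with both hairpins. These counts stand beside 13.1% of all NPC genes and 16.3% of all organoid genes. SHC3, a neuronal adaptor that binds activated receptors, rose in the NPCs to 81.2 ± 7.22 CPM with sh1 and 88.5 ± 7.04 CPM with sh4, against 27.6 ± 2.43 CPM with NC (log2 fold change 1.55 and 1.68). In the organoids SHC3 fell to 15.8 ± 1.99 CPM with the sh1 label and 4.96 ± 1.73 CPM with the sh4 label, against 41.3 ± 3.71 CPM with the NC label (log2 fold change -1.38 and -3.05). Its relative SHC2 fell in the NPCs to 5.32 ± 0.81 and 4.80 ± 0.53 CPM, against 17.3 ± 1.92 CPM (log2 fold change -1.70 and -1.85). GRB7, an adaptor that binds ERBB2 and whose gene lies near it, fell in the organoids to 1.70 ± 0.24 CPM with the sh1 label and 7.02 ± 1.28 CPM with the sh4 label, against 22.4 ± 2.70 CPM with the NC label (log2 fold change -3.72 and -1.68). Each gene named here as risen or fallen passed the same test, adjusted over all tested genes.

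For each receptor the genes with the most similar profile were sought by Pearson's r of log2 CPM over all libraries of a system, as a description of libraries that share their groups. Over the 15 NPC libraries and 7860 genes, EPDR1 and CCDC92 were closest to EGFR (r = 0.995 and 0.994), CYBC1 and TRMT2A to ERBB2 (0.965 and 0.961), and INTU and NTRK3 to ERBB4 (0.99 and 0.989). Over the 9 organoid libraries and 11715 genes, TEX264 and DPP7 were closest to EGFR (0.996 each), VPS16 and FBLN2 to ERBB2 (0.993 and 0.991), PAG1 and MAP3K11 to ERBB3 (0.978 and 0.972), and RSPO3 and LRP4 to ERBB4 (0.976 and 0.975). No gene closest to a receptor in the NPCs was among the closest to the same receptor in the organoids. With so few genes kept out of 7860 and 11715, this says little about the systems.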

How the data were processed

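Poly(A) RNA of 24 libraries was sequenced, and the authors deposited 1 table of expected counts per system, unscaled. The deposited values count as estimated because 82.4% of NPC values and 91% of organoid values were whole and the rest had decimals. The alignment and counting used STAR, featureCounts and GRCh38.p13 per the submitters' processing notes, with versions and strand settings not given in the sources used here.

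Values were rounded to whole numbers, filtered with filterByExpr (minimum count 10), scaled by TMM and tested per system, 3 groups in 1 fit, with edgeR 4.0.16 (quasi-likelihood, Benjamini-Hochberg adjustment, R 4.3.3). A call needed an adjusted p under 0.05 and a log2 fold change of at least 1 in size. The differences between systems came from 1 fit over 6 groups. Exon lengths came from GENCODE, promoters from RefSeq, whose letters were searched on both strands. Replicates differed beyond sampling noise in every pair (chi-square over degrees of freedom 2.65 to 55.4), so none were merged. Each library was left out in turn, and DESeq2 1.42.0, RLE scaling, library totals alone, no filter, only the groups compared and a replicate block were tried. The fits were tested on simulated data.

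All 10 genes and KDM2A were named in the comparisons over NC of each system in which they were analysed. From each pathway list, genes that passed in 1 direction for sh1 and sh4 in a system were named, at most 4, by adjusted p, and for each receptor the 2 genes of highest r with a mean log2 CPM of at least 3. The genes and lists were chosen with earlier results of these data known.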

Additional observations from a re-analysis of the deposited data

Results flagged for a closer look

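In the NPCs, BTC in NC replicate 2 stood apart from the other NC libraries at 1.03 CPM, the gap to the next library being 0.822 of the range of the group. Of the 18 groups of this size looked at, 1 was marked, and chance marks about 1 in 20.

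The changes over NC differed between NPCs and organoids in the test of the difference itself for 5 genes. On the log2 scale, NPC minus organoid, the values with sh1 were -4.90 for BTC, -3.19 for EGFR, -1.67 for ERBB4 and 1.00 for NRG1. With sh4 they were -6.52 for BTC, -4.60 for EGFR, -1.84 for ERBB4, 2.92 for NRG1 and 2.66 for TGFA. BTC passed the filter on low counts in each system through the groups where it was higher, which gives a negative difference. Its values are therefore a description only. KDM2A itself was lower in the NPCs and not in the organoids, and the organoid marker sums differed widely between groups. Their part in these differences was not tested.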

How the results depend on the processing

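Counts of calls, over all genes and over the receptors and ligands, stayed within 1.5 times of the reported ones in all 276 refits. With the replicate number as a block, 1818, 1789 and 460 NPC genes were called (sh1 over NC, sh4 over NC, sh1 over sh4) and 3774, 6887 and 3598 organoid genes, against 1815, 1786, 454, 3944, 6982 and 3745. The labels do not say that a number marks shared material, and not every pair correlated over 0.1, so the numbers were not taken to pair the samples: deviations of same-numbered libraries correlated at -0.0809 to 0.336 in NPCs (median 0.103, 8 of 15 pairs over 0.1, against a median of -0.0231 and 10 of 60 for other pairs) and at -0.128 to 0.04 in organoids (0 of 9). Signs turned for values near 0: ERBB2 in organoids, sh1 over sh4, was -0.00618 with DESeq2 and -0.00621 with RLE scaling. Leaving out single libraries gave -0.029 to 0.057 for EGFR in NPCs (sh1 over sh4), and in organoids -0.29 to 0.078 for TGFA and -0.14 to 0.085 for HBEGF (sh4 over NC) and -0.039 to 0.19 for ERBB4 (sh1 over sh4). Outside of these, NRG1 in NPCs fell under the fold threshold with library totals alone (0.96 with sh1, 0.86 with sh4) and, for sh4, in 4 other fits (up to 1.00 with the block), and BTC in organoids, sh1 over sh4, lost its call in 4 fits (adjusted p 0.0531 to 0.0947, the block among them). The NRG1 difference between systems for sh1 was 0.88 with library totals alone and 0.98 with the block. The cause was not tested. Library totals alone moved the median of all genes by -0.14 in NPCs for each hairpin, by -0.27 for sh4 in organoids, by 0.23 for sh1 over sh4 there, and the share of calls that were higher to 23.7% (34.3% with TMM scaling) for sh1 in NPCs, 43.3% (56.5%) for sh4 in organoids and 57.3% (41.1%) for sh1 over sh4 there. Depth limits BTC and EREG most, with 3 to 5 reads in the organoid NC libraries.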

Other observations

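Outside the rule for named genes, and chosen after their values were seen, some other ligands of the family passed the test in the organoids with the label of a single hairpin. EGF, the ligand that gives EGFR its name, fell in libraries labelled sh1 (log2 fold change -1.58, SE 0.23, adjusted p = 0.000488) and was at -0.14 in those labelled sh4 (SE 0.22, adjusted p = 0.588). The neuregulin NRG2 fell in libraries labelled sh1 (-1.48, SE 0.41, adjusted p = 0.0138) and was at -0.93 in those labelled sh4 (SE 0.39, adjusted p = 0.06). NRG3, a neuregulin that binds ERBB4, fell in libraries labelled sh4 (-2.34, SE 0.32, adjusted p = 0.000127) and was at -0.89 in those labelled sh1 (SE 0.29, adjusted p = 0.0318), under the fold threshold. The differences between hairpins were not tested for these genes here. In the NPCs the metalloprotease ADAM12 fell with sh1 (-1.25, SE 0.064, adjusted p = 2.49e-12), while it rose in the organoid libraries of both labels.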
